A study of Rattus norvegicus with 6 samples.

Results

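Genes that mark astrocytes were compared between the tish line and the SD strain, using RNA from the cerebral cortex of rats before birth, at embryonic day 18. The set holds 7 genes chosen by function, Gfap, Aqp4, Slc1a2, Glul, S100b, Gja1 and Apoe, out of 32754 gene IDs in the deposited count table, and all 7 IDs were found there. The list that defined the set paired each Ensembl ID with its symbol. The files and the reference tables used here do not link Ensembl IDs to symbols, so these names could not be checked and stand as that list gives them. Of the groups, tish is a rat line with a bilateral band of misplaced neurons below the cortex, for which the series title gives a deletion in Eml1, a gene for a microtubule-associated protein. The other group, SD, is the Sprague-Dawley rat and is the control. RNA was sequenced from 3 tish embryos and 3 SD embryos, with 2 males and 1 female in each group and 1 animal per library. The protocol describes normally placed plus heterotopic cortex for tish and neocortex for SD, so genotype and dissected tissue cannot be told apart. Litter and dam are not among the labels, and p-values measure the spread between these animals, which may share a litter. Eml1 itself, and markers of other cell types, were not analysed here because no other ID could be paired with a symbol.

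Astrocytes are the glia that take up glutamate and potassium, supply neurons with metabolites, and surround blood vessels with their endfeet. In the rodent cortex they arise from radial glia, the stem cells of the ventricular zone, which make neurons first and glia from late gestation onward. In the mouse, cytokine receptors acting through STAT3, and the nuclear factor I proteins, are known to switch on glial genes such as Gfap, and most mature astrocyte properties appear after birth. The 7 genes differ in how specific they are before birth. Gfap, Aqp4 and S100b are usually taken as signs of a maturing astrocyte, though S100b also marks some cells of the oligodendrocyte lineage and Aqp4 also marks ependymal cells. Glul, Gja1 and Apoe are already used by radial glia, and Apoe also by microglia.

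Library totals ran from 15625915 to 20844504 counts, so 1 count stood for 0.0485 to 0.0638 CPM (counts per 1000000 counts of a library, with totals adjusted by TMM factors). Counts are not divided by gene length, so levels were compared between libraries and not between genes. Each gene was tested in 1 model over the whole table with edgeR's quasi-likelihood test, and the call was set at an adjusted p (Benjamini-Hochberg) under 0.05. All 7 markers passed the filter on low counts. The filter asked for about 10 counts, scaled to the median library, in 3 libraries, and 6 markers met it in every library of both groups. Slc1a2 met it in 3 tish libraries and 2 SD libraries.

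Astrocyte markers were higher in tish cortex in 4 cases and lower in 0. Gfap, Aqp4, Glul and Apoe rose in tish, while Slc1a2, S100b and Gja1 did not pass the test. Among all 14818 genes tested, 13.4% were called higher in tish, 12.9% were called lower and 26.3% were called in either direction. The median log2 fold change of the 7 markers was 1.12, a fold of 2.18, against -0.02 over all tested genes. Of the 7 markers, 3 were called at more than 2-fold higher in tish, against 4% of all genes, and 2 at more than 4-fold, against 0.655%. In 6 of 7 markers every tish library lay above every SD library, which held for 21.8% of all genes. The 6 include the ID listed as Slc1a2, with 10 to 25 counts per library. Its lowest tish level was only 1.04 times its highest SD level. In 0 of 7 was every tish library below every SD library, against 22.6% of all genes. The genes were chosen with earlier results of these data known, so these shares are set side by side as a description. In bulk tissue, more cells of a type and more RNA per cell cannot be told apart.

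**Figure D1:**
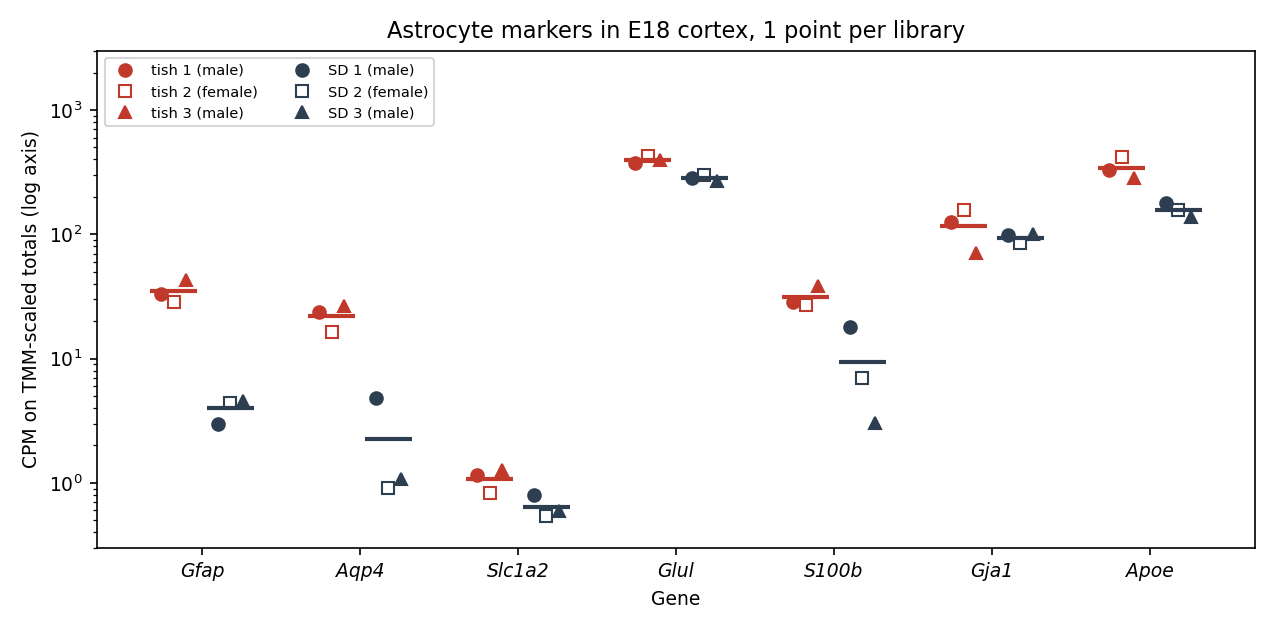
Level of each marker in each library, in CPM on TMM-scaled totals on a log axis, with tish in red to the left of SD in dark blue. Filled points are males, open squares are females, and bars are group means. Only Gja1 has tish and SD libraries that overlap, and the SD points spread most in Aqp4 and S100b.

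Gfap (ENSRNOG00000002919), the intermediate filament protein of astrocytes, showed the change with the smallest adjusted p of the set. It had 520, 586 and 850 counts in tish 1, tish 2 and tish 3, which is 33.2, 28.4 and 43.2 CPM. The SD libraries held 52, 82 and 85 counts in the same replicate order, which is 2.96, 4.42 and 4.55 CPM. Every tish library was far above every SD library, and the lowest tish level was 6.25 times the highest SD level. The group levels were 34.9 ± 7.54 CPM in tish and 3.98 ± 0.885 CPM in SD (standard deviation, n = 3 each). The log2 fold change was 3.13 (SE 0.22, 95% interval 2.64 to 3.62), a fold of 8.76, with an edgeR adjusted p of 7.39e-05. It ranked 17 among the log2 fold changes of the 14818 tested genes, counted from the highest. The relative spread between libraries was similar in both groups, at 21.6% of the mean in tish and 22.3% in SD.

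The sequence before the start of Gfap is shown because Gfap had the smallest adjusted p of the set. It is the 250 bases before the first base of the gene in RefSeq, chr10:88361662-88361911 on the minus strand of build GRCr8, written 5′ to 3′. Capitals would mark TTGGC, the core of nuclear factor I sites, or TTCNNNGAA, the core of STAT sites, each searched on both strands (TTCNNNGAA reads the same on both).
Gfap: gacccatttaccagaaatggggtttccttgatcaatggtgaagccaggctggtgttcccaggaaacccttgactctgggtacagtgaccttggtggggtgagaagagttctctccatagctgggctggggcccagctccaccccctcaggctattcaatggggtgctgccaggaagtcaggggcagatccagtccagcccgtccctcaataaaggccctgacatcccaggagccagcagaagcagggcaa
Neither motif occurs in this window. TTGGC was found in 40.3% of the 33469 windows of this length in the RefSeq table, and TTCNNNGAA in 7.67%. RefSeq lists more than 1 start for some markers, and over the 12 windows of the 7 markers TTGGC occurred in 6 and TTCNNNGAA in 0. Windows of 1 gene are not independent of each other, and some Apoe windows with TTGGC overlap. These counts describe letters near the start and say nothing about sites farther away.

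Aqp4 (ENSRNOG00000016043), the water channel of astrocyte endfeet, was also several-fold higher in tish, with uneven SD libraries. It had 369, 337 and 520 counts in tish 1, tish 2 and tish 3, and 85, 17 and 20 counts in SD 1, SD 2 and SD 3. All tish libraries were above all SD libraries, and SD 1 stood well above SD 2 and SD 3. In CPM the levels were 23.5, 16.3 and 26.4 in tish and 4.83, 0.916 and 1.07 in SD. The means were 22.1 ± 5.19 CPM in tish and 2.27 ± 2.22 CPM in SD (standard deviation, n = 3 each). The log2 fold change was 3.29 (SE 0.63, 95% interval 1.74 to 4.84), a fold of 9.78, with an edgeR adjusted p of 0.0138. The fold depended on SD 1, in which Aqp4 was 4.86 times the mean of SD 2 and SD 3. Without SD 1 it was 22.1, with an adjusted p of 1.59e-05, the smallest of the alternatives. The call was lost without tish 1 (adjusted p = 0.0589), with males alone (0.0906) and with no filter on low counts (0.0559), while the log2 fold change in those 3 settings stayed between 3.09 and 3.30.

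S100b (ENSRNOG00000001295), a small calcium-binding protein, was also highest in SD 1 among the SD libraries, and its difference between groups did not pass the test. It had 451, 553 and 751 counts in tish 1, tish 2 and tish 3, and 315, 129 and 57 counts in SD 1, SD 2 and SD 3. The groups did not overlap, but SD 1 came close to tish. In CPM the levels were 28.8, 26.8 and 38.2 in tish and 17.9, 6.95 and 3.05 in SD. The highest SD level was 5.87 times the lowest, against 1.42 times within tish. Mean levels were 31.3 ± 6.07 CPM in tish and 9.31 ± 7.70 CPM in SD (standard deviation, n = 3 each). Tish over SD, this was a log2 fold change of 1.75 (SE 0.62, 95% interval 0.17 to 3.33) with an edgeR adjusted p of 0.101. Without SD 1 the fold was 6.25 and the adjusted p 0.00397. Without SD 3, the lowest SD library, the fold was 2.51 and the edgeR adjusted p 0.0806. The gene was also called by DESeq2 (adjusted p = 0.0487) and by voom in limma (0.0108), in a range of 0.00129 to 0.395 over all alternatives.

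Aqp4 and S100b shared their high value in SD 1, though S100b also differed between SD 2 and SD 3, at 6.95 and 3.05 CPM. Of all tested genes, 210 (1.42%) were at least 2-fold higher in SD 1 than in both other SD libraries, against 13 in SD 2 and 17 in SD 3. Aqp4 and S100b were the 2 markers among those 210. Gfap did not follow them, since its SD 1 level of 2.96 CPM was the lowest of the SD libraries. What sets SD 1 apart was not tested.

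**Figure D2:**
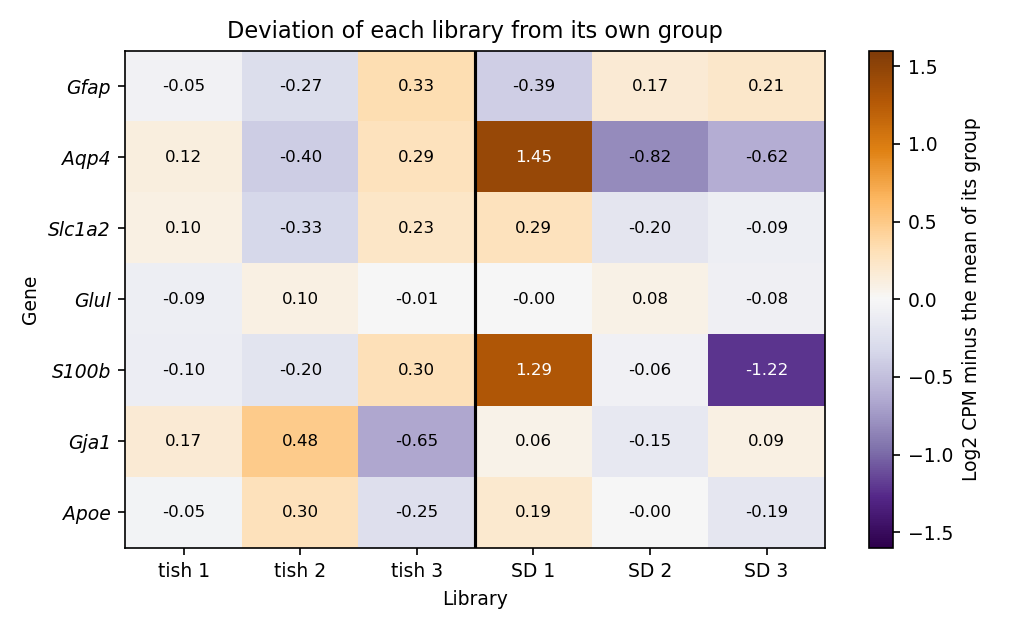
Log2 CPM of each marker in each library minus the mean of its own group, with tish libraries on the left and SD libraries on the right. Aqp4 and S100b are 1.45 and 1.29 above their SD mean in SD 1, S100b is -1.22 in SD 3, and Gja1 is -0.65 in tish 3.

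Among the genes of glutamate handling, Glul (ENSRNOG00000049560) encodes glutamine synthetase, which turns glutamate into glutamine. Glul was the most even of the 7 markers, with 5829, 8724 and 7762 counts in tish 1, tish 2 and tish 3 and 4960, 5555 and 4987 counts in SD 1, SD 2 and SD 3. Every tish library was above every SD library after scaling, at 372, 423 and 395 CPM in tish against 282, 299 and 267 CPM in SD. The means were 397 ± 25.8 CPM in tish and 283 ± 16.2 CPM in SD (standard deviation, n = 3 each). The difference was small, with a log2 fold change of 0.49 (SE 0.09, 95% interval 0.29 to 0.68), a fold of 1.40, with an edgeR adjusted p of 0.00357. Its spread between libraries was 6.50% of the mean in tish and 5.74% in SD, and the difference between groups exceeded it.

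The ID listed as Slc1a2 (ENSRNOG00000005479), the gene of the glutamate transporter GLT-1, was counted only a few times per library in both groups. The annotation used for counting and the pairing of this ID with the symbol could not be checked, so the values belong to the ID and may not give the level of GLT-1 RNA. It had 18, 17 and 25 counts in tish 1, tish 2 and tish 3, and 14, 10 and 11 counts in SD 1, SD 2 and SD 3. The levels were 1.15, 0.825 and 1.27 CPM in tish and 0.796, 0.539 and 0.589 CPM in SD, so the groups were only just apart. The summed counts were 60 in tish and 35 in SD, a ratio of 1.68 after scaling, with an exact 95% interval of 1.09 to 2.63 that covers counting error only. The log2 fold change was 0.75 (SE 0.33, 95% interval 0.01 to 1.48) with an edgeR adjusted p of 0.122, which does not pass the test. In fold, the 95% interval of the fit ran from 1.01 to 2.78.

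Apoe (ENSRNOG00000018454), the main lipid carrier protein of the brain, had 5135, 8572 and 5598 counts in tish 1, tish 2 and tish 3. The SD libraries, in replicate order, held 3142, 2895 and 2569 counts. Every tish library was above every SD library, at 328, 416 and 285 CPM in tish and 179, 156 and 138 CPM in SD. The means were 343 ± 67.0 CPM in tish and 157 ± 20.6 CPM in SD (standard deviation, n = 3 each). The log2 fold change was 1.12 (SE 0.15, 95% interval 0.78 to 1.47), a fold of 2.18, with an edgeR adjusted p of 0.00153. Apoe ranked higher in log2 fold change than 96.4% of tested genes, Gfap and Aqp4 than 99.9% and Glul than 85.9%.

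The window before Apoe is shown beside that of Gfap because both genes rose by more than 2-fold and both windows lie outside the gene. It spans chr1:88485817-88486066 on the minus strand of GRCr8 in RefSeq, written 5′ to 3′, with matches to TTGGC, here on the opposite strand as GCCAA, in capitals.
Apoe: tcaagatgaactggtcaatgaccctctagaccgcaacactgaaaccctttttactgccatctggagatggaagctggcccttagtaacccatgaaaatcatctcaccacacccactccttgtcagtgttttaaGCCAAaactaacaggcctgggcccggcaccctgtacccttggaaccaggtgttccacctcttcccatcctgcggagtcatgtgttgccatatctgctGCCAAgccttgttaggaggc
TTGGC occurs 2 times in this window, and TTCNNNGAA does not occur. RefSeq also lists other starts for Apoe, and each of their windows holds TTGGC 1 time and TTCNNNGAA 0 times. Those Apoe windows and the windows of Aqp4 overlap the annotated gene and are not shown.

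Gja1 (ENSRNOG00000000805), which encodes the gap junction protein connexin 43, was the 1 marker whose groups overlapped. It had 1966, 3213 and 1393 counts in tish 1, tish 2 and tish 3, and 1722, 1565 and 1862 counts in SD 1, SD 2 and SD 3. The SD libraries lay close together at 84.4 to 99.7 CPM, while tish 1 and tish 2 lay above them at 125 and 156 CPM and tish 3 below them at 70.8 CPM. The means were 117 ± 43.1 CPM in tish and 94.0 ± 8.39 CPM in SD (standard deviation, n = 3 each). The fitted log2 fold change was 0.32 (SE 0.28, 95% interval -0.35 to 0.99) with an edgeR adjusted p of 0.449. Without tish 3 the log2 fold change was 0.58 with an adjusted p of 0.0170, in a range of 0.0123 to 0.993 over the alternatives. With males alone the sign turned, at -0.0053. Gja1 in tish 3 was at 0.503 times the mean of tish 1 and tish 2. Apoe was also lowest in tish 3 among the tish libraries, while Gfap, Aqp4, S100b and Slc1a2 were highest there and Glul lay between tish 1 and tish 2. In tish 3, 250 tested genes were at least 2-fold below both other tish libraries, against 17 in tish 1 and 87 in tish 2. Gja1 was not among the 250.

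**Figure D3:**
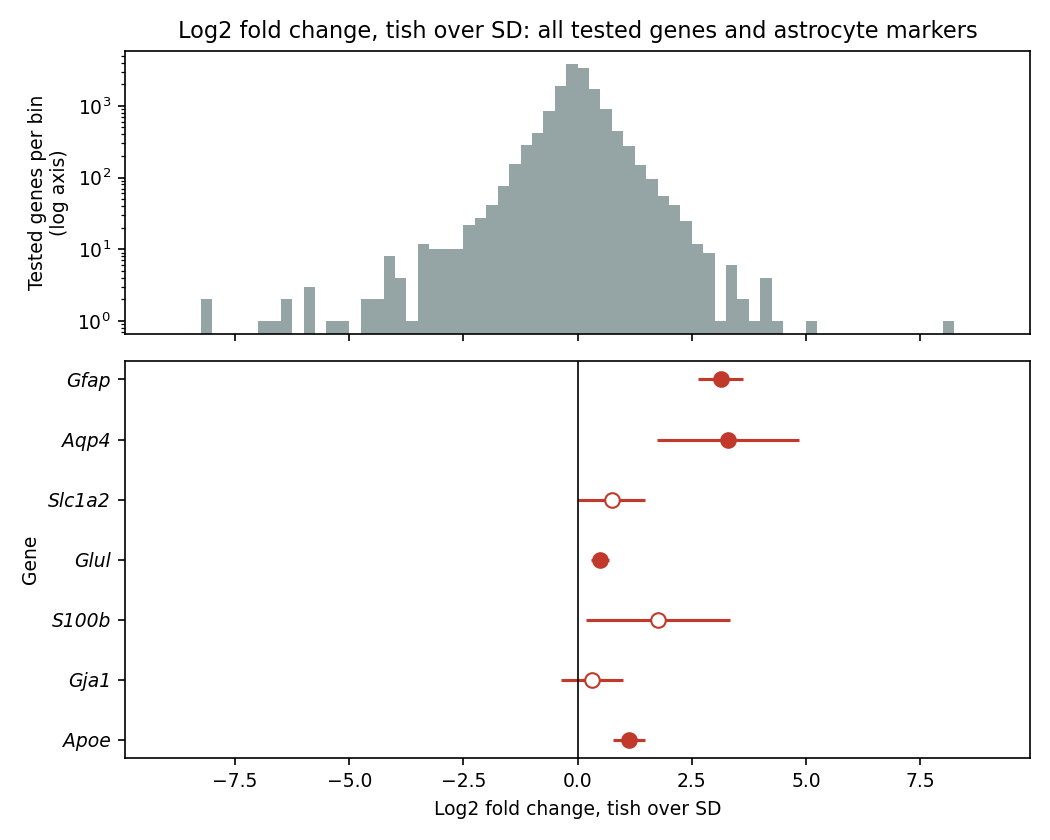
Upper panel, number of tested genes per bin of log2 fold change, tish over SD, with a log count axis. Lower panel, log2 fold change of each marker with its 95% interval, filled where the adjusted p is under 0.05. Gfap at 3.13 and Aqp4 at 3.29 lie in the right tail of all genes, and the interval of Gja1 spans 0.

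The 4 calls were not equally firm. Gfap, Glul and Apoe kept direction and call in all 16 alternatives. Adjusted p-values ran from 3.94e-42 to 0.00166 for Gfap, 3.56e-06 to 0.0209 for Glul and 7.73e-12 to 0.0165 for Apoe. The smallest value of each came from DESeq2, a different test, and the largest from edgeR with males alone. For Gfap the smallest edgeR value was 5.55e-08, with no filter on low counts. The log2 fold changes ranged from 2.78 to 3.35 for Gfap, from 0.44 to 0.53 for Glul and from 0.96 to 1.34 for Apoe. Slc1a2 was called in 0 of the 15 alternatives in which it was tested. With SD 1 and tish 3 left out together, 6 of the 7 markers were called higher in tish, all but Slc1a2, against 13.1% of the 14896 genes tested in that setting. These are the libraries in which S100b and Gja1 stood closest to, or beyond, the other group. Leaving them out therefore favours a call of S100b and Gja1. S100b was already called without SD 1 alone, and Gja1 without tish 3 alone. The 6 of 7 thus follows from the choice of libraries, and the 13.1% beside it is no measure of support.

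**Figure D4:**
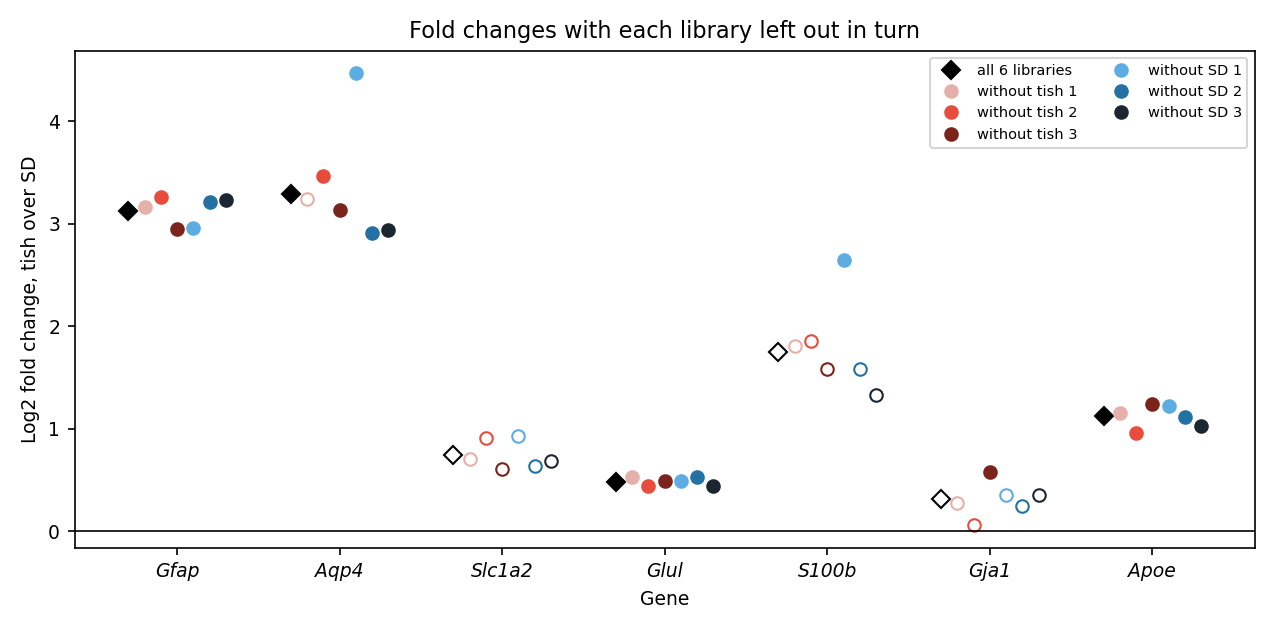
Log2 fold change of each marker, tish over SD, with all 6 libraries (diamonds) and with each library left out in turn (circles), filled where the adjusted p is under 0.05. Aqp4 at 4.47 and S100b at 2.64 stand highest without SD 1, and Gja1 is called only without tish 3 among these fits.

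The sexes were compared over 4 males and 2 females with genotype in the model. None of the 7 markers was called (edgeR), none had an unadjusted p under 0.05, and DESeq2 called 0 as well, while 0.0405% of all genes were called. The widest interval was that of S100b, with a log2 fold change, male over female, of 0.44 (95% interval -1.75 to 2.62). The narrowest was that of Glul, at -0.13 (95% interval -0.31 to 0.04). These intervals do not show that the sexes were alike.

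Likeness among the markers was described with and without the step between groups. On log2 CPM over the 6 libraries, with the step included, Pearson's r between markers ran from -0.009 (Slc1a2 and Gja1) to 0.960 (Glul and Apoe). On deviations from the group means, which leave the step out, it ran from -0.91 (Gfap and Apoe) to 0.84 (Aqp4 and S100b). The 0.84 includes SD 1, in which Aqp4 and S100b were 1.45 and 1.29 above their SD mean in log2 CPM. With 6 libraries, r on deviations can be large without a shared cause, so these values carry no test either. Over the 6 libraries, 600 of 14811 other tested genes had a Pearson's r of at least 0.95 with the log2 CPM of Gfap. The counts were 735 for Aqp4, 409 for Glul, 369 for S100b, 273 for Slc1a2, 202 for Apoe and 26 for Gja1. The 6 libraries form 2 groups by genotype, so these counts describe the step between groups together with the order within them, and they carry no test. None of these genes could be named here.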

How the data were processed

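RNA from the cortex of 6 rat embryos was sequenced, and the authors deposited 1 table of raw counts per Ensembl gene ID. STAR, the build Rnor_6.0 and featureCounts 1.5.0 are named in the submitters' processing notes. For the annotation release, the strand setting and multi-mapping reads, nothing is given in the sources used here, which leaves the counts of overlapping or near-identical genes uncertain. The table lists 32751 IDs a second time with 0 differing values, and the first occurrence was used. The 1 line naming no gene holds 0 counts (0% of the total). Each column carries the library name of 1 sample title.

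Tests used edgeR 4.0.16 in R 4.3.3: filterByExpr with a minimum count of 10, TMM scaling, robust glmQLFit and glmQLFTest with genotype as the only term, adjusted over all tested genes. A standard error is the log2 fold change divided by the square root of F, and its 95% interval uses the fit's degrees of freedom. Log2 CPM used a prior count of 2. Procedures were tested on simulated data. The same comparison was repeated with DESeq2 1.42.0, limma 3.58.1 (voom), other scalings and filters, sex as a covariate, males alone, and libraries left out.

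The members and lists were chosen with earlier results of these data known. All 7 members are named, with symbols from the list that defined the set. The reference table (GRCr8) has an Ensembl ID for 0 of its 47357 genes, so the planned lists of other marker genes were not analysed here. Sequences come from RefSeq by symbol, found for all 7. Replicate numbers follow the order of the samples.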

Additional observations from a re-analysis of the deposited data

How the results depend on the processing

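Of 111 log2 fold changes of single markers under another setting, 101 kept direction and side of the threshold, 3 lost the call (all Aqp4), 6 gained it (4 for S100b and 2 for Gja1) and 1 reversed (Gja1 with males alone, -0.0053 on the log2 scale). The cause was not tested. With 1 library left out, 3 to 5 markers were called higher in tish and 0 lower, and over all genes 1307 to 2480 were called higher and 1130 to 2284 lower. Males alone gave 1170 genes higher and 960 lower, with 2 libraries per group. Without scaling factors 1746 genes were called higher and 2283 lower, against 1980 and 1914 with TMM. Between the sexes 0 markers were called in every setting run. Slc1a2 has no value with the filter of 1 CPM in 3 libraries, and its 10 to 25 counts per library limit its precision. No paired analysis was possible because the labels number no replicates, and the numbers used here only name libraries.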
